A study of Homo sapiens with 4 samples.

Results

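The 1469 regions described here are stretches of open chromatin that lay far from any coding gene and were called as peaks in HepG2 cells after EZH2 inhibition but not in untreated cells. They were drawn from 80551 regions obtained by merging the ATAC-seq peaks of 4 libraries wherever peaks overlapped by at least 1 bp. They were selected on 4 measures, namely a peak under tazemetostat in both replicates with no peak in either control, a fold over the surrounding 10 kb under 8 in at least 1 tazemetostat library, a place outside every coding gene body, and a centre over 50 kb from the nearest coding gene 5′ end. These calls, folds and distances are therefore given below as a description without a test. HepG2 is a human hepatocellular carcinoma line, here of wild-type genotype. Control cells (Ctrl, 2 libraries) were labelled untreated, and treated cells (Taze, 2 libraries) received 5 µM tazemetostat, dissolved in DMSO, for 48 h. The protocol attached to all 4 libraries describes 50000 treated cells that were pretreated with DNase to remove free DNA, and does not say whether the control cells had this step, so any effect of it cannot be told apart from the treatment. The labels do not say whether replicates were separate cultures, so the spread between them may be technical.

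EZH2 is the catalytic subunit of polycomb repressive complex 2, which methylates lysine 27 of histone H3 and keeps developmental genes silent. Tazemetostat blocks this methyltransferase activity. Transposase inserts sequencing adapters where DNA is not wrapped or compacted, so ATAC-seq peaks far from genes mark candidate distal elements such as enhancers, insulator sites bound by CTCF, and promoters of non-coding RNA genes. A low fold over the local background means that the tags around the peak were also fairly dense, or that the peak itself was shallow.

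To show what these regions look like, the central 200 bp of 7 members are printed from the plus strand of hg38. They are the member with the most tags (chr16:34582219-34582418), another with unique sequence near GLI2 (chr2:120564589-120564788), the highest-ranking member in the body of a long non-coding RNA (lncRNA) gene (chr6:43917425-43917624), and the highest members with a match to FOXA (chr15:100715833-100716032), CTCF (chr4:190120334-190120533), AP-1 and GATA (chr1:234960769-234960968) and HNF4 (chr2:8599779-8599978). Capitals mark the motif matches.
Chromosome 16 member: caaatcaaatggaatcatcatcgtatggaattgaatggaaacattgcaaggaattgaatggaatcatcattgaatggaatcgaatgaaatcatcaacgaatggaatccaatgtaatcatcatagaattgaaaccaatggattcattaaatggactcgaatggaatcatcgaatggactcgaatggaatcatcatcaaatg
GLI2 member: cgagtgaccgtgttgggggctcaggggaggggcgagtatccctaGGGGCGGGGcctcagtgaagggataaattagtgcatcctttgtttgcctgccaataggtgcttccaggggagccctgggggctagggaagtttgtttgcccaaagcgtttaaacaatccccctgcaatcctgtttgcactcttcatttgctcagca
VEGFA member: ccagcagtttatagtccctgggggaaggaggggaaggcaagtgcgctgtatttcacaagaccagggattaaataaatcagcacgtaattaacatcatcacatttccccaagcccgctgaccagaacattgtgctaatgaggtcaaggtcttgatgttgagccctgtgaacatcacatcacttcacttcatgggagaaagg
LINS1 member: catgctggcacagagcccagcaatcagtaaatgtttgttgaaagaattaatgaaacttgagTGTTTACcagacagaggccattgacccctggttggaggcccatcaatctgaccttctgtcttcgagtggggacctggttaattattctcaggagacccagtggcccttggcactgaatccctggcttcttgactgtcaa
DUX4 member: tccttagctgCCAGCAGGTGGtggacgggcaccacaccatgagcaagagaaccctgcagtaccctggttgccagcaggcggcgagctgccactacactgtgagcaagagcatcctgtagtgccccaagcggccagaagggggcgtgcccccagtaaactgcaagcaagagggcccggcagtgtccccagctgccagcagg
TOMM20 member: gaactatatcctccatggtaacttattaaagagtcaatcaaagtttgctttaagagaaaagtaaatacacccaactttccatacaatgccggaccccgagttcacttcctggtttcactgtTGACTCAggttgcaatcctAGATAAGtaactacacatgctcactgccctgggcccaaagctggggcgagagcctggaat
ID2 member: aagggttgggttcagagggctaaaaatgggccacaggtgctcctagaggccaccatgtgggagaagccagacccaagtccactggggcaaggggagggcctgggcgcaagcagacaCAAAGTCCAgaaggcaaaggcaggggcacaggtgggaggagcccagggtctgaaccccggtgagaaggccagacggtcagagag
The chromosome 16 stretch consists of imperfect copies of a short unit, and 81.9% of its 24-mers occur more than once in hg38, the most frequent 683 times. In the DUX4 stretch every 24-mer (100%) was repeated, with up to 21 copies. The other 5 stretches had no repeated 24-mer.

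Mapped tags, as given in the file headers, numbered 17.2 and 23.8 M in the control libraries and 19.8 and 26.6 M in the tazemetostat libraries, so depth overlapped between the groups. Of 9 hepatocyte genes, 4 (APOA1, APOB, HNF4A and TF) had a peak within 1 kb of their 5′ end in all 4 libraries. TTR and SERPINA1 had a peak in no library, ALB had one in both tazemetostat libraries only, AFP in Taze replicate 1 and FOXA2 in Taze replicate 2. Of 10 genes marking blood, endothelium, fibroblasts, nerve or muscle, 7 had no peak and none had a peak in all 4, but GFAP had one in both tazemetostat libraries, SNAP25 in Taze replicate 2 and MYOD1 in Taze replicate 1. HOMER's fragment length was 200 bp in the control headers and 144 bp in the tazemetostat headers, a setting that cannot be told apart from the treatment.

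Tazemetostat-only calls made up 13.7% of all merged regions (11044) and 14% of the 15947 regions in far intergenic positions (2231). The members were 65.8% of these 2231 far regions and 13.3% of all tazemetostat-only regions. The other 762 far tazemetostat-only regions had a fold of 8 or more in both libraries and are termed sharp far regions below. Of the members, 1034 had a low fold in both tazemetostat libraries, 112 in replicate 1 alone and 323 in replicate 2 alone. At the fold limit, the 2 members just inside lay nearest to INTS6 and MMUT with lower folds of 7.98 and 7.97, and the 2 regions just outside lay nearest to PTGER4 and NBPF8 with lower folds of 8 and 8.08. At the distance limit, members near DCTN6 and IGFBPL1 were 50.13 and 50.14 kb from the 5′ end, while regions near OSBPL3 and XKR5 were just outside at 49.99 and 49.87 kb.

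Far intergenic positions gave 4150 peaks in Ctrl replicate 1, 5794 in Ctrl replicate 2, 9641 in Taze replicate 1 and 9982 in Taze replicate 2. These were 15.9%, 16.7%, 17.4% and 18.4% of the peaks of each library. Both numbers were higher in each tazemetostat library than in each control library, and the group means were 4972 ± 1162 and 9812 ± 241 far peaks (SD, n = 2 each). An exact permutation test of 2 against 2 libraries cannot reach the threshold of 0.05, so none was used for these numbers. When far low-fold regions were sorted by the libraries that called them, 1469 were found in both tazemetostat libraries alone and 77 in both control libraries alone. When the 26133 highest peaks of each library were used, these numbers were 301 and 179, a comparison of which the second number was added after the data were seen. A single library accounted for 1011 (Ctrl replicate 1), 1199 (Ctrl replicate 2), 2178 (Taze replicate 1) and 2327 (Taze replicate 2) regions. Low fold here means under 8 in at least 1 library with a peak, which is met more easily by a region called in more libraries. A further 1038 regions had peaks in both tazemetostat libraries and Ctrl replicate 2, against 245 in both tazemetostat libraries and Ctrl replicate 1. Ctrl replicate 2 was the more deeply sequenced control, and the part of depth in these numbers was not tested.

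**Figure D1:**
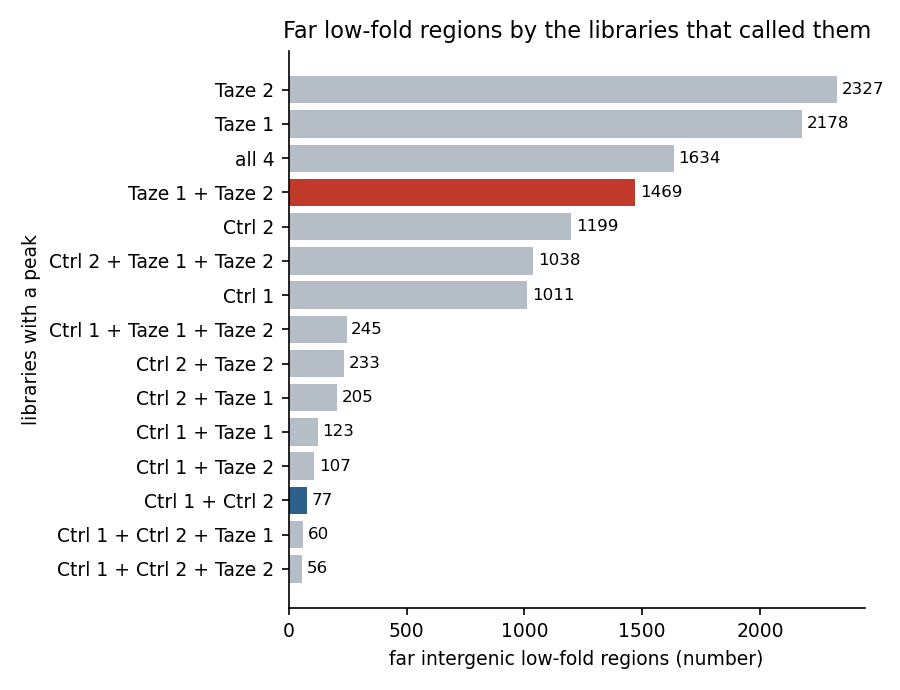
Number of far intergenic low-fold regions (horizontal axis) by the exact set of libraries with a peak (vertical axis). The 1469 members (red) outnumber the 77 regions of both controls alone (blue; 301 and 179 with equal peak numbers per library), and regions of a single tazemetostat library number 2178 and 2327.

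In Taze replicate 1 the normalised tag count, which is tags per 10 M mapped tags, ran from 6.05 to 81.1 with a median of 10.6, or 21 tags. In Taze replicate 2 it ran from 4.89 to 64 with a median of 9.79, or 26 tags. The mean of both libraries was under 10 in 680 members (46.3%) and 30 or more in 36. In Taze replicates 1 and 2 the medians were 9.57 and 9.03 in sharp far regions and 11.6 and 10.2 in all far regions, close to those of the members. Far regions of both tazemetostat libraries that were also called in controls had higher medians. These were 15.1 and 13.9 with a peak in 1 control, and 29.7 and 26.7 with a peak in both controls. The 2 libraries stood within 2-fold of each other in 1382 members (94.1%), and the ratio of replicate 1 to replicate 2 had a median of 1.10, with a 5th percentile of 0.630 and a 95th of 1.97. Across members, which are not replicates, Spearman's rho between the libraries was 0.608 for tag counts and 0.479 for local folds. Both were selected to lie over a calling limit, and depth is shared by all members of a library. In bulk libraries, a site open in few cells and a site weakly open in many cells cannot be told apart.

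**Figure D2:**
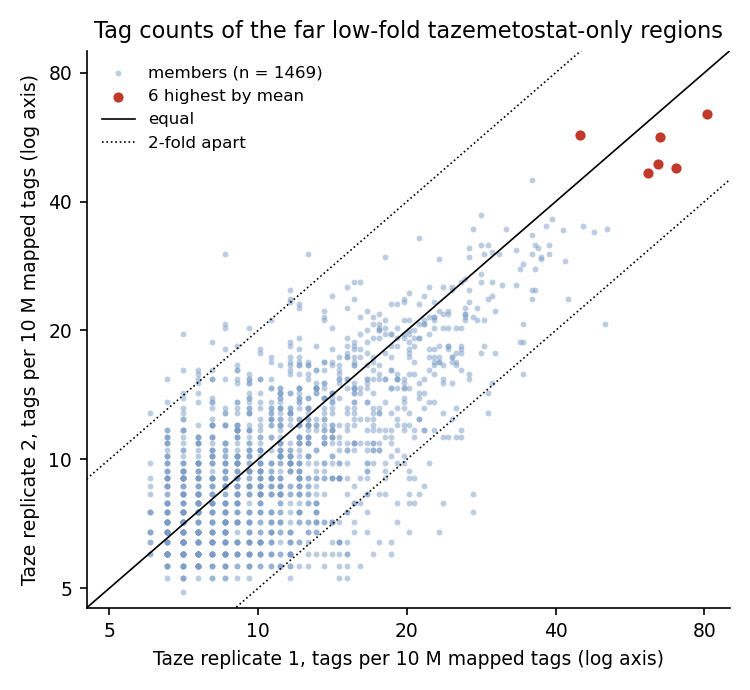
Normalised tag count of each member in Taze replicate 1 (horizontal, log axis) and Taze replicate 2 (vertical, log axis), with a solid line for equal values and dotted lines for 2-fold differences. Of 1469 members, 1382 lie within the dotted lines, and the 6 highest by mean (red) stand apart from a mass with medians of 10.6 and 9.79.

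The rule asked for an overlap of 1 bp between the peaks of the libraries. The overlap was a median of 95.2% of the shorter peak, with a lowest value of 2 bp and 58 members under 50%, and the middles of the peaks lay a median of 46 bp apart. Merged member length had a median of 454 bp (300 to 1282 bp), and the members covered 0.692 Mb together. In 364 members both peaks had the smallest possible length of 300 bp. The longest member, chr6:2542594-2543876, lay 222 kb from WRNIP1 and was uneven, with 8.57 tags per 10 M in Taze replicate 1 over a 383 bp peak and 30.1 in Taze replicate 2 over a 1282 bp peak.

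A list of peaks holds no value for a control library where no peak was called, so the absence of a control peak is not a measured difference. The depth of the controls was set beside the tazemetostat tag rate and the tag thresholds stated in the headers. The rate was averaged over the whole length of each peak. The headers also state a local fold of 4 over 10 kb, which was not applied here. The numbers that follow are therefore not the share of members that the controls could have called. At the mean tazemetostat rate per bp, a 300 bp window would have held a median of 14.1 tags in Ctrl replicate 1, where the header states 14, and 742 members (50.5%) would have reached that number. In Ctrl replicate 2 it would have held a median of 19.4 tags, against 16 in the header, and 1300 members (88.5%) would have reached it. The lowest listed counts were 6.4 per 10 M in Ctrl replicate 1 and 5.04 per 10 M in Ctrl replicate 2. At depths of 17.2 and 23.8 M mapped tags, these lie under the header numbers when counted in unscaled tags. The header numbers are thus not a lower limit on the listed counts. The deposited peak score was not set against them, so how they entered the calling was not tested.

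Control peaks were often close by. A control peak lay within 1 kb of 115 members (7.83%), within 5 kb of 330 (22.5%), within 10 kb of 573 (39.0%) and within 50 kb of 1164 (79.2%). The median distance was 14.8 kb, against 57.2 kb for the sharp far regions, of which 90 (11.8%) had a control peak within 10 kb. The local fold is itself taken against the surrounding 10 kb, so nearness of other peaks and the fold limit that chose the members are not independent. A region called in all 4 libraries lay within 10 kb of 230 members (15.7%).

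**Figure D3:**
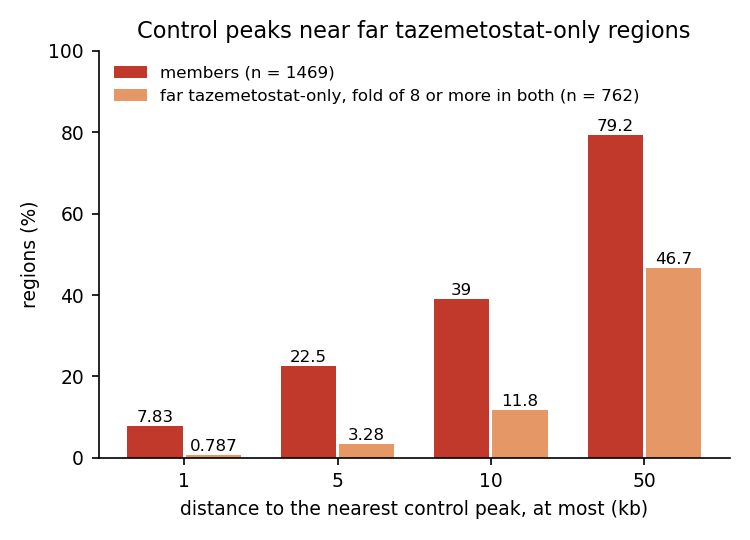
Share of regions (vertical axis, percent) with a control peak within 1, 5, 10 or 50 kb (horizontal axis), for the 1469 members and the 762 sharp far regions with a fold of 8 or more in both tazemetostat libraries. Within 10 kb the shares are 39.0% and 11.8%.

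The 6 members with the most tags differed in kind. The first, chr16:34582168-34582469, is the repeated stretch printed above, with 81.1 and 64 tags per 10 M in Taze replicates 1 and 2. A control peak lay 0.277 kb from it and a region of all 4 libraries 0.255 kb, so this member sat inside an area that the controls also called. The member 171 kb from GLI2, a transcription factor of hedgehog signalling, had 65 and 56.5 tags per 10 M (chr2:120564324-120565052). The nearest control peak was 9.27 kb away. The member 64.6 kb from ADRA2C, an adrenergic receptor gene, had 70 and 47.8 (chr4:3830639-3831274), with a control peak at 5.54 kb.

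The member 193 kb from TWIST2, a transcription factor of mesenchymal development, had 64.5 and 48.9 tags per 10 M (chr2:239040084-239040892). Its nearest control peak was 53.2 kb away, the farthest among the 6. On chromosome Y, a member inside the DUX4L19 pseudogene had 61.5 and 46.7 (chrY:11333348-11333724), with 40.1% of its 24-mers repeated. The member 147 kb from VEGFA, the main growth factor of blood vessels, had 44.8 and 57.2 and lay in the body of the lncRNA gene LINC01512 (chr6:43917127-43917921). Of these 6, this was the member in which replicate 2 was higher than replicate 1. Local folds of the 6 ranged from 4.15 to 5.14, near the minimum of 4, and none of the 6 remained when peaks had to reach a fold of 5.

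The share of members in the bodies of lncRNA genes was within the range of the other far sets. In all, 533 members (36.3%, 95% Wilson interval 33.9 to 38.8) overlapped an lncRNA body, and 897 (61.1%) lay outside every annotated gene. The lncRNA share was 40.5% (38.5 to 42.6) in the 2146 far regions called in all 4 libraries, 36.6% (33.3 to 40.1) in sharp far regions, and 34.4% (33.7 to 35.1) in all far regions, a set that includes the members. These intervals cover counting error only. An lncRNA 5′ end lay within 1 kb of 93 members (6.33%, 5.2 to 7.69), against 8.53% of far regions of all 4 libraries and 4.20% of sharp far regions. The median of the mean tag count was 11.8 in these 93 members and 10.4 in all members.

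After the LINC01512 member, the highest member in an lncRNA body lay 0.317 kb from the 5′ end of ENSG00000259579 and 113 kb from LINS1, with 50.9 and 34.6 tags per 10 M (chr15:100715564-100716300). It carried a FOXA match, in the sequence printed above. This member thus sat at the start of an annotated non-coding gene, although far from coding genes.

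Distances to the nearest coding 5′ end had a median of 114 kb and exceeded 100 kb in 852 members (58%) and 500 kb in 83. The farthest members lay on the short arms of acrocentric chromosomes. They were 5301 kb from TPTE (chr21:5220268-5220857, 9.07 and 8.66 tags per 10 M), 4841 kb from OR11H1 (chr22:10687332-10687719, 7.56 and 6.78) and 4500 kb from TPTE (chr21:6021403-6021976, 13.6 and 12.8). In these 3 members between 77.4% and 100% of 24-mers were repeated, so reads there could have come from other copies.

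Chromosome 2 held 223 members (15.2%), chromosome 6 held 119, chromosome 1 held 116, and chromosome X held 8. Per Mb, chromosome 20 (1.07) and chromosome 2 (0.921) held the most and chromosome X (0.0513) the fewest. Of all far regions, 14.8% lay on chromosome 2 and 1.56% on chromosome X. On chromosome 2 the sharp far regions had a lower share, 6.96% (5.36 to 8.99), than the members (13.4 to 17.1). On chromosomes 14, 17 and 20 together, grouped as gained in HepG2, the shares were 11.3% of members, 3.81% of sharp far regions and 11.9% of all far regions. Chromosome copy number was not measured here, and its part in any of these shares was not tested.

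**Figure D4:**
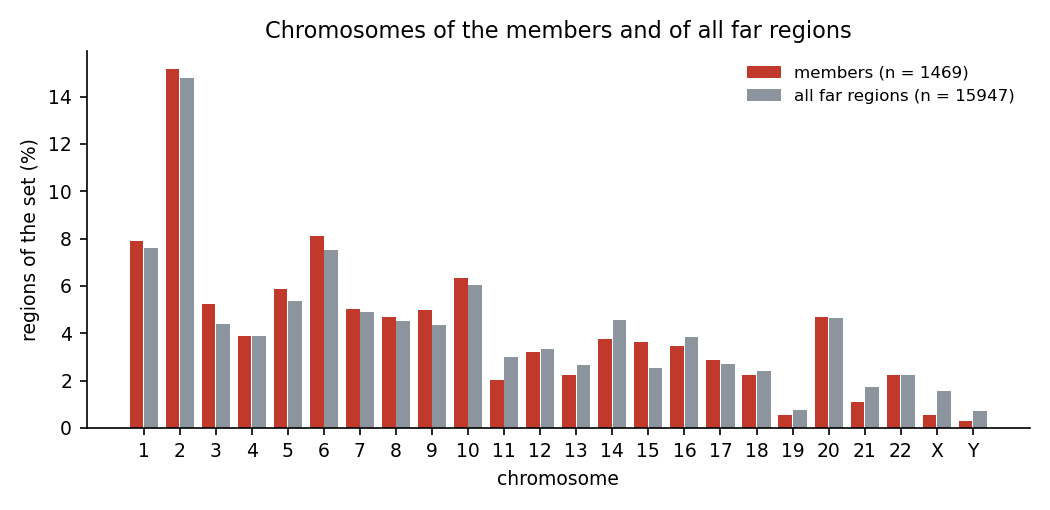
Percent of the members (red, n = 1469) and of all far regions (grey, n = 15947, members included) on each chromosome. Chromosome 2 stands highest in both sets, at 15.2% and 14.8%, and chromosome X holds 0.545% of members and 1.56% of far regions.

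Joined across gaps of up to 10 kb, 1291 members stood alone and 178 (12.1%) fell into 85 runs, of which 79 held 2 members. No such share was counted for other far regions, so whether members grouped more or less than these was not tested. The longest runs held 4 members each. The first lay 315 to 330 kb from FOXO1, a forkhead transcription factor of insulin signalling, in the body of LINC00598 (chr13:40336193-40351991). Its members had 7.56 to 15.6 tags per 10 M in Taze replicate 1 and 9.79 to 14.7 in replicate 2. Among them, chr13:40336193-40336610 and chr13:40336627-40337246 lay side by side, with almost no gap. The second run lay 80.2 to 93.3 kb from ICE1, a subunit of the complex that elongates small nuclear RNA transcription (chr5:5327168-5340691). Its members had 7.56 to 10.1 in replicate 1 and 6.4 to 9.03 in replicate 2. A run of 3 members lay 154 to 165 kb from NR3C1, the glucocorticoid receptor gene (chr5:143589168-143601085). Its highest member had 33.8 and 18.8 tags per 10 M and a control peak at 0.297 kb.

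To see which transcription factors' consensus sequences the members held, the central 200 bp were searched on both strands for 10 motifs. Besides CTCF they were HNF4 (CAAAGTCCA), FOXA (TGTTTAC), CEBP (TTNCGCAA), GATA factors (AGATAAG), AP-1 (TGANTCA), TEAD (ACATTCC), ATF (TGACGTCA), NFkB (GGAATTTCC) and SP/KLF (GGGGCGGGG). None of these consensus sequences contains another. At least 1 motif was found in 500 members (34.0%) and at least 2 different ones in 71, and no share of other regions is set beside these 2 numbers. A match describes letters and not binding. The patterns differ in length and in fixed letters, so shares are compared between sets of regions and not between motifs. Median region length was 454 bp in members, 391 bp in sharp far regions and 663 bp in far regions of all 4 libraries. The central 200 bp thus covered a smaller part of the last set, and the effect of this on the shares was not tested.

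CTCF, the insulator protein that anchors chromatin loops, had a match in 104 members (7.08%, 5.88 to 8.51). The share was 5.22% (4.28 to 6.36) in far regions of both tazemetostat libraries and 1 control, and 4.33% (3.10 to 6.02) in sharp far regions. Both intervals overlap that of the members. In far regions of all 4 libraries the share was 2.47% (1.89 to 3.22). It was 4.02% in all far regions and 3.84% in all merged regions. Low-fold tazemetostat-only regions that were not far intergenic had 5.92% (5.38 to 6.51), an interval that overlaps that of the members. The CTCF share of the members fell to 4.65% when an equal number of peaks was taken from each library and to 5.13% when peaks under 8 tags per 10 M were left out. Members with a match had a median mean tag count of 9.75, against 10.4 without. The highest member with a match, 53.3 kb from DUX4, was the fully repeated stretch printed above, with 35.8 and 44.8 tags per 10 M (chr4:190120136-190120731). DUX4 is a homeobox gene of the subtelomeric repeat array of chromosome 4.

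FOXA, the pioneer factors of liver development, had a match in 123 members (8.37%, 7.06 to 9.90). The share was 17.6% (15.1 to 20.5) in sharp far regions, 10.5% (9.30 to 11.9) in far regions of all 4 libraries, 8.41% in all far regions and 6.44% in all merged regions. AP-1, the stress-responsive FOS and JUN dimer, had a match in 151 members (10.3%, 8.83 to 11.9). Its share was 12.6% (10.4 to 15.1) in sharp far regions and 8.95% in all far regions. The highest member with AP-1 and GATA matches lay 168 kb from TOMM20, in the lncRNA gene LNCATV, with 41.3 and 34.3 tags per 10 M (chr1:234960626-234961110).

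The other liver factors searched were HNF4 and CEBP, with longer patterns than FOXA. HNF4 had a match in 36 members (2.45%, 1.78 to 3.37), against 2.56% of far regions of all 4 libraries, 2.10% of sharp far regions, 1.59% of all far regions and 1.48% of all merged regions. CEBP had a match in 19 (1.29%, 0.830 to 2.01), against 0.606%, 0.919%, 0.521% and 0.637% of these sets. The highest member with an HNF4 match lay 79.0 kb from ID2, with 27.2 and 34.6 tags per 10 M (chr2:8599581-8600175). The highest with CEBP lay 224 kb from LY86 (26.7 and 23.3, chr6:6811200-6812138). GATA had a match in 66 members (4.49%, 3.55 to 5.68), against 4.59% of sharp far regions, 3.5% of far regions of all 4 libraries, 2.97% of all far regions and 2.74% of all merged regions. TEAD, the factors of Hippo signalling, had one in 55 (3.74%, 2.89 to 4.84), against 5.82% of far regions of all 4 libraries and 4.47% of all far regions. The highest TEAD member lay 51.8 kb from ENSG00000284779 (45.4 and 35, chr11:2097454-2098121). SP/KLF, factors of GC-rich promoters, had a match in 16 members (1.09%), of which the GLI2 member was the highest, against 0.959% of all far regions and 3.61% of all merged regions. ATF and NFkB matches were found in 3 and 4 members (0.204% and 0.272%), against 0.238% and 0.276% of all far regions. The highest of each lay 56.2 kb from DUSP1 (35.8 and 23.7, chr5:172714769-172715308) and 239 kb from OSR1 (19.1 and 12.4, chr2:19119336-19119977).

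**Figure D5:**
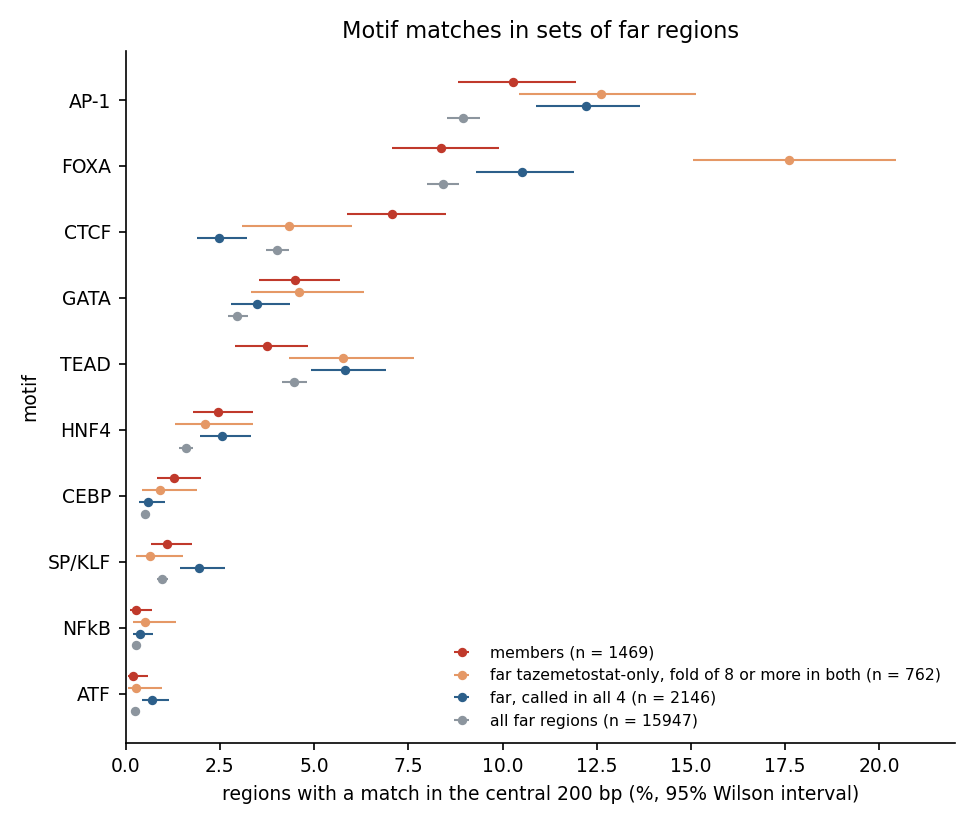
Percent of regions (horizontal axis, 95% Wilson interval) with a motif match in the central 200 bp, for members, sharp far regions, far regions of all 4 libraries and all far regions (members included). The CTCF interval of the members (5.88 to 8.51) lies above that of far regions of all 4 libraries (1.89 to 3.22). It overlaps that of sharp far regions (3.10 to 6.02). The FOXA interval of the members (7.06 to 9.90) lies below that of sharp far regions (15.1 to 20.5). Far regions of all 4 libraries are longer, so the central 200 bp cover a smaller part of them.

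GC content of the central 200 bp had a median of 50% in members, 46% in sharp far regions and 49% in far regions of all 4 libraries. All 24-mers were unique in 913 members (62.2%, 59.6 to 64.6), against 59.4% (57.3 to 61.4) in far regions of all 4 libraries and 55.0% (51.4 to 58.5) in sharp far regions. Most 24-mers (over 50%) were repeated in 224 members (15.3%, 13.5 to 17.2), against 21.6% of far regions of all 4 libraries and 58.0% of the 88 far regions called in both controls alone. Members with mostly repeated sequence had about the tags of the rest, with a median mean tag count of 10.2 against 10.5 in members with unique sequence. The deposited lists do not say how reads with several genomic matches were placed.

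The members spread over many neighbouring genes. They had 1028 different nearest coding genes, of which 738 were nearest to 1 member. ID2, an inhibitor of basic helix-loop-helix factors in development, was nearest to 10 members, TPTE to 8, NFE2L3 to 7, and PREX1 and TRIB1 to 6 each. Around ID2 the members lay 79.0 to 853 kb away, and 56 far regions in all had ID2 as nearest gene, so 10 members were a share of 17.9%. Around NFE2L3, a stress-responsive bZIP factor, the 7 members were 46.7% of 15 far regions, and the highest had 25.2 and 11.3 tags per 10 M (chr7:25950969-25951538). PREX1, an exchange factor for the GTPase RAC, had 6 members among 18 far regions. TRIB1, a pseudokinase that controls CEBP proteins in the liver, had 6 among 22. Around TPTE the 8 members were 5.13% of 156 far regions. Of all 15947 far regions 1469 were members, and these genes were picked for having the most members.

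Developmental transcription factors include classic polycomb targets, although the list used here also holds other genes, such as FOXO1 of insulin signalling. Genes of this list were nearest to 75 members (5.11%, 4.09 to 6.35), against 5.54% of all far regions and 5.31% of far regions of all 4 libraries. The share of members was thus within its counting interval of the background. Named by rule, TBX3 was nearest to 6 members, the highest with 24.2 and 22.2 tags per 10 M, FOXO1 to 5, and SOX9 and PITX1 to 3 each. The highest SOX9 member lay 382 kb from the gene, with 28.2 and 31.6 tags per 10 M (chr17:72502445-72503107). SOX9 is a regulator of cartilage and of bile duct cells. The highest PITX1 member, near a gene of hindlimb development, had 22.7 and 21.5 (chr5:135133978-135134440).

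Genes of secreted growth factors were nearest to 19 members (1.29%, 0.830 to 2.01) and to 1.15% of all far regions. INHBB, which encodes an activin subunit, had 4 members, and the bone morphogenetic protein genes BMP7 and BMP2 had 3 each. The highest BMP7 member had 38.3 and 35 tags per 10 M (chr20:57130002-57130682). None of the 10 far regions nearest to BMP7 was called in all 4 libraries, while 2146 of all 15947 far regions were. The same held for other nearest genes, such as BRD1 with 27 far regions and BCOR with 15. VEGFA had 2 members. Liver plasma protein and metabolism genes were nearest to 11 members (0.749%, 0.419 to 1.34), against 0.715% of all far regions. They included 2 members each at SERPINA3, a protease inhibitor made by the liver, at ALDH1L1 and at ALDH1A2, and 1 at APOB with 12.6 and 13.2 tags per 10 M.

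Neural adhesion and axon guidance genes were nearest to 23 members (1.57%, 1.05 to 2.34), against 3.15% (2.13 to 4.64) of sharp far regions, 1.77% of far regions of all 4 libraries and 2.27% of all far regions. CNTNAP3C had 6 of these members and CNTNAP3B had 3, both near-identical copies in the duplicated pericentromere of chromosome 9. CDH5, a cadherin of endothelium rather than neurons, and CADM1 had 2 each. Ion channel and neurotransmitter receptor genes were nearest to 16 members (1.09%, 0.672 to 1.76), against 3.28% (2.23 to 4.80) of sharp far regions, 1.12% of far regions of all 4 libraries and 1.90% (1.70 to 2.12) of all far regions. ADRA2C had 3 of these, KCNK9 had 2, and HTR4 and TRPV4 had 1 each. Zinc finger genes were nearest to 21 members (1.43%, 0.937 to 2.18), against 2.74% (2.50 to 3.00) of all far regions, with 2 members each at ZNF469, ZNF217, ZNF92 and ZNF621. The highest ZNF469 member had 38.8 and 30.1 tags per 10 M. Olfactory receptor genes were nearest to 12 members (0.817%) and to 0.872% of all far regions, led by OR4E1 with 3 members and by OR4F5, OR4F29 and OR11H1 with 2 each.

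To ask how far positions with a control value behaved, far intergenic regions with exactly 1 peak in each of the 4 libraries were tested. The fold limit that chose the members was not set for these regions. They are not members and took no part in the choice of members. Across all 15383 such regions in any position, limma with Benjamini-Hochberg adjustment called 42.7% higher and 0.247% lower under tazemetostat. Of the 2036 far ones, 989 (48.6%) were higher and 17 (0.835%) lower. The median normalised tag count of the far ones was 14.5 and 17.6 in the controls and 29.7 and 26.7 under tazemetostat, above the 10.6 and 9.79 of the members. The median log2 difference was 0.75 for the far ones and 0.70 for all tested, on the log2(count + 1) scale. Once each library was centred on its median, these medians were -0.01 and -0.06, and limma called 0 far regions higher and 0 lower. Without adjustment, 91 of them were higher and 253 lower at p under 0.05. edgeR with TMM factors called 6 higher and 79 lower, and DESeq2 called 1 and 48. Without Ctrl replicate 1, limma called 506 far regions higher, and without either tazemetostat library it called 0 in both directions (556 or 871 higher at an unadjusted p under 0.05). The number and direction of the calls thus depended on the scale, and no standard from outside these libraries was used here to set it.

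The far regions with the lowest p of the limma test in each direction were picked after their values were seen. The one with higher values lay 65.5 kb from SLC1A4, an amino acid transporter gene (chr2:64922525-64923503), with 9.89 and 17.2 tags per 10 M in the controls and 68.5 and 61 under tazemetostat. Its log2 difference was 2.22 ± 0.31 (SE; limma adjusted p = 0.00191), and after median centring 1.46 (limma adjusted p = 0.136), while DESeq2 gave an adjusted p of 0.0104. The one with lower values lay 84.6 kb from MARCHF5, a mitochondrial ubiquitin ligase gene (chr10:92375423-92376202), with 28.5 and 22.7 tags in the controls and 9.57 and 8.28 under tazemetostat. Its log2 difference was -1.42 ± 0.30 (SE; limma adjusted p = 0.00649), and -2.18 after centring (limma adjusted p = 0.136), with a DESeq2 adjusted p of 0.00113. In both regions the control and tazemetostat values did not overlap, which a choice by lowest p makes likely in itself.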

How the data were processed

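ATAC-seq peak lists of 4 HepG2 libraries (2 untreated, 2 given 5 µM tazemetostat for 48 h) were used, with groups and replicate numbers from the sample titles. The authors' processing notes and methods name bcl2fastq for demultiplexing, Trim Galore 0.6.6 for adapter removal, Bowtie2 2.3.5.1 for alignment (hg38) and HOMER 4.11.1 for peak calling, done library by library. The headers state a false discovery rate of 0.001 where the methods state another value, and the lists were used as deposited. The signal deposited for each peak is its normalised tag count, scaled to 10 M mapped tags, which gave whole tags (within 0.25) in 100% of peaks. The deposited score, a tag count, the p-value deposited for each peak and the deposited clonal ratio were not used. The deposited fold over the local 10 kb is a ratio and served to choose the members.

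Peaks overlapping by at least 1 bp were merged, and centres were annotated with GENCODE release 44. Mapped depth was 17.2 to 26.6 M tags, and Wilson intervals (95%) cover counting error only. Motifs and 24-mers were counted in the central 200 bp, the latter over chromosomes 1 to 22, X and Y. Regions of all 4 libraries were tested with limma 3.58.1 (no block) after adding a pseudocount of 1 and taking log2, which shrinks differences between low counts, and with edgeR 4.0.16 and DESeq2 1.42.0 on whole tags in R 4.3.3, at an adjusted p of 0.05. The scripts were tested on simulated data. Members and gene lists were chosen with earlier results of these data known. Named by rule were the 6 highest members, the 3 farthest, the 3 longest runs, the 3 highest in lncRNA bodies, the highest with each motif, the longest, those at the limits, the 5 genes nearest to the most members and up to 4 genes per list. Alternatives were other overlaps, peak filters, distances, scalings and leaving out each library. A marker gene, a consensus sequence and a member were left out and are not reported here.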

Additional observations from a re-analysis of the deposited data

Results flagged for a closer look

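Peaks on contigs outside chromosomes 1 to 22, X and Y were not used in the report, since the annotation of coding genes there is sparse. In these 2331 merged regions, 211 had a peak in both tazemetostat libraries and neither control library with a local fold under 8 in at least 1 of them, against 18 with the reverse pattern in the controls. They were singled out because the first number was above the second in data outside the main measurement, although the lists hold no control value where no peak was called. The 211 were 9.05% of the regions on contigs, and the same pattern made up 10.4% of the 78220 regions on the chromosomes, so the share on contigs was not above that elsewhere. Their mean normalised tag count had a median of 10.1, close to the 10.4 of the members on the chromosomes.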

How the results depend on the processing

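The number of members (1469) was 301 when the 26133 highest peaks of each library were used, 953 with a local fold of at least 5, 2238 beyond 25 kb, 852 beyond 100 kb and 897 with the bodies of all annotated genes left out. Leaving out 1 library gave 1693 to 3705 members, most without Taze replicate 1 (3705), Taze replicate 2 (3351) and Ctrl replicate 2 (2399), where fewer libraries had to meet the rule. The median normalised tag count of the members (10.4) was 20.1 with equal peak numbers and 13.3 with peaks of at least 8 tags per 10 M, and 7.53 to 11.8 when 1 library was left out. The share with a CTCF match (7.08%) was 4.65% with equal peak numbers, 5.13% with peaks of at least 8 tags, 5.87% beyond 100 kb and 8.92% when the whole region was searched, and 4.6% to 7.03% without 1 library.

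Of the far regions called in all 4 libraries, 989 were higher and 17 lower by limma. Median centring gave 0 and 0, edgeR with TMM factors 6 and 79, and DESeq2 1 and 48. Without 1 library there were 0 to 1151 higher and 0 to 26 lower. Without Ctrl replicate 1 there were 506 higher, without Ctrl replicate 2 there were 26 lower, and without either tazemetostat library there were 0 of both, with 556 or 871 higher at an unadjusted p under 0.05. In these fits the lone library was assumed to vary like the other group. Same-numbered libraries did not deviate together (correlation -0.002), so the numbers were not taken as pairs, and with a replicate block there were 780 higher and 13 lower. What depth limits at the members was not tested, since the lists hold no control value there. The cause of these changes was not tested.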
